A study of Mus musculus with 8 samples.

Results

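Regulatory T (Treg) cells that settle in fat, skin, lung or gut carry a set of transcripts that most Treg cells of lymphoid organs lack, and 8 of its genes are described here. Il1rl1, Il1r2, Il18r1 and Il18rap encode receptors of the interleukin (IL)-1 family, Gata3 and Rora encode transcription factors, Areg encodes a repair factor and Klrg1 a receptor of terminally differentiated lymphocytes. They were chosen by name. The study that made these data had already reported Il1rl1, Klrg1, Areg, Rora and Gata3 as lower in its deficient Treg cells. The direction of those genes here is therefore not independent evidence. All 8 were among the 52459 genes listed, and all 8 passed the filter of a mean of at least 10 normalized counts that left 15419 genes for testing. A normalized count is a read count of a gene divided by 1 size factor per library.

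The study asked which transcripts of mature Treg cells depend on STIM1 and STIM2, the sensors of the endoplasmic reticulum that open the calcium channel of the plasma membrane after antigen receptor signals. Its 8 libraries form 4 groups of 2, from female C57BL/6 mice that were heterozygous for Foxp3-YFPcre on the X chromosome. In these mice the Foxp3 promoter drives Cre only in those Treg cells whose active X carries the allele. YFP-positive cells (both Stim1 and Stim2 fl/fl, with Foxp3-YFPcre) are the Stim1/2-deficient group, and YFP-negative CD25-high Treg cells of such mice, which hold the floxed alleles without Cre, are the WT group. Genotype was therefore bound to Cre and YFP expression. Cells from spleen and lymph nodes were sequenced unstimulated (WT replicates 3 and 4, Stim1/2-deficient replicates 1 and 2) or after 16 h on plates with anti-CD3/CD28 at 1 µg/ml (replicates 1 and 2 of each genotype). Each library came from a pool of mice, and no age is given in the labels. Nothing says that pools of 1 group were prepared independently, so p-values measure the spread between these libraries, which may be technical. Unstimulated libraries ran on lane 4 and stimulated libraries on lane 1, and stimulation and lane cannot be told apart.

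The libraries held 11851853 to 16306540 reads on genes, and 1 read was worth 0.759 to 1.48 normalized counts. The lowest count of any of the 8 genes was 15 reads, for Klrg1 in Stim1/2-deficient replicate 2 of both states. Normalized counts of Stim1 were 1139 and 1377 in unstimulated WT and 1538 and 1868 in the libraries labelled Stim1/2-deficient (log2 fold change 0.44, BH-adjusted p = 0.236 in limma, where BH is the method of Benjamini and Hochberg), and Stim2 had 906 and 908 against 904 and 744 (log2 fold change -0.15, limma BH-adjusted p = 0.721). Counts over a whole gene include exons that the deletion leaves in place and check nothing here. Genotypes of these libraries therefore rest on the labels and on checks that the study made on other cells. It reported loss of Stim1 and Stim2 transcripts by RT-PCR in Treg cells of male mice. It also reported that YFP-positive Treg cells of heterozygous females lacked calcium entry through the channel. Below, "labelled libraries" are those labelled Stim1/2-deficient. Here and below, called means a BH-adjusted p below 0.05 in limma together with a difference beyond 1.5-fold, and SE is the standard error of a log2 fold change. Of the 7 genes used to check Treg identity, Cd4, Cd3e and Cd3g had log2 fold changes of -0.36 to -0.12 in unstimulated cells and were not called, Foxp3 (-0.98) and Il2ra (-0.65) were not called, and Ctla4 (-1.79) and Ikzf2 (-1.13) were called lower in labelled libraries. All 7 were measured in every library, with summed levels of 87840 and 94553 normalized counts in unstimulated WT and 42374 and 49397 in labelled libraries.

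ST2 is the receptor of IL-33, an alarmin that damaged barrier and stromal cells release, and it signals with the shared chain IL-1RAP through MyD88 and IRAK kinases. IL-18 acts in the same manner through IL-18Rα and IL-18Rβ, the products of Il18r1 and Il18rap, whereas IL-1R2, the product of Il1r2, binds IL-1 without signalling and so acts as a decoy. GATA3 is the lineage factor of type 2 lymphocytes and is known to bind at Il1rl1, RORα supports innate lymphoid cells and tissue Treg cells, and amphiregulin, the product of Areg, is an epidermal growth factor (EGF) receptor ligand through which tissue Treg cells aid repair. KLRG1 binds cadherins and marks differentiated effector Treg cells.

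In unstimulated cells, the labelled libraries held less of every one of the 8 transcripts than both WT libraries. The test called 5 of them lower, namely Il1rl1, Il1r2, Rora, Areg and Klrg1, by 5.04-fold to 33.4-fold, and did not call Il18r1, Il18rap and Gata3, whose levels were 1.82-fold, 3.08-fold and 1.77-fold lower. Among all tested genes, 3.35% were called lower, and for 27.1% both labelled libraries lay below both WT libraries, as they did for 8 of the 8. The median log2 fold change of the 8 was -2.42, against -0.01 over all tested genes. Because the study itself named Il1rl1, Rora, Areg, Klrg1 and Gata3 as lower from these libraries, these comparisons describe the 8 genes. They are not an independent test of them. After stimulation none of the 8 was called by limma, 5 had an unadjusted p under 0.05 (13.7% of all tested genes did), and the median log2 fold change was -1.03, against 0.02 over all tested genes. In such bulk samples, fewer cells with a transcript and less of it per cell cannot be told apart.

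**Figure D1:**
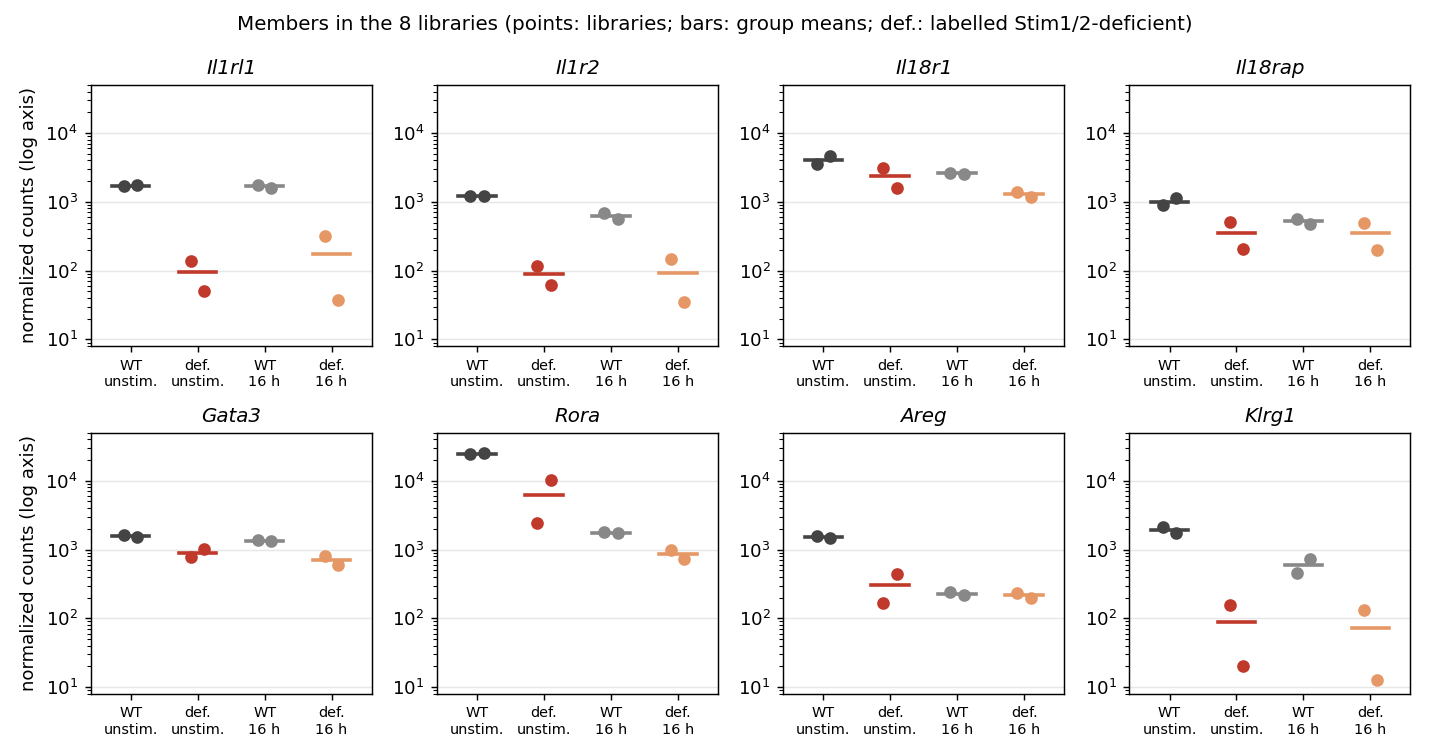
Normalized counts (log axis) of the 8 genes in each of the 8 libraries, with 1 panel per gene, points for libraries and bars for group means, where def. stands for libraries labelled Stim1/2-deficient. In unstimulated cells both labelled points lie below both WT points in all 8 panels, whereas after 16 h of stimulation the groups overlap for Areg and Il18rap.

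The 4 receptor genes lie in 1 block of mouse chromosome 1. On GRCm38.p6 (RefSeq), the block from Il1r2 to Il18rap runs from chr1:40084692 to 40551707, which is 467 kb, and holds 6 protein-coding genes. Il1r2 spans 40084692 to 40125230, Il1rl1 40404864 to 40465418, Il18r1 40465552 to 40500854 and Il18rap 40515362 to 40551707, with Il1r1 and Il1rl2 between Il1r2 and Il1rl1. Gata3 lies on chromosome 2 (9857078 to 9887953), Areg on chromosome 5 (91139599 to 91148432), Klrg1 on chromosome 6 (122270596 to 122282833) and Rora on chromosome 9 (68653404 to 69388246).

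The RefSeq promoter table used here matched 7 of the 8 genes, all but Klrg1. The 250 bases upstream of a start are shown for Il1rl1, for Il1r2 of the same block and for Areg, 3 of the genes whose differences were called. For Il1rl1 the promoter table held a pair of starts, called first and second here. Both lie inside the gene, downstream of its annotated start at 40404864, for which no window was available. Counts per gene do not separate transcripts of different starts, or membrane-bound from soluble ST2. Capitals mark the core letters bound by NFAT, the calcium-dependent factor downstream of the channel (GGAAA, or TTTCC on the other strand), and by GATA factors (GATAA, or TTATC), and all windows are on the plus strand.
Il1rl1, first start, chr1:40429320-40429569: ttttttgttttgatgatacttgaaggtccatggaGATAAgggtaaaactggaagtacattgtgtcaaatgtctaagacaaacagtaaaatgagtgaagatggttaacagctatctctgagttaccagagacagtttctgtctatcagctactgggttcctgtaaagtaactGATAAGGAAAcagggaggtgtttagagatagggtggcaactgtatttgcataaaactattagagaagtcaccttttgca
Il1rl1, second start, chr1:40439379-40439628: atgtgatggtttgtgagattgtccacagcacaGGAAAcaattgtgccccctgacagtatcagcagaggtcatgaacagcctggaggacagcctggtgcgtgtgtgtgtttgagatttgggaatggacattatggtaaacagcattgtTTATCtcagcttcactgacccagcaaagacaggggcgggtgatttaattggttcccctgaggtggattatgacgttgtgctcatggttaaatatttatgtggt
Il1r2, chr1:40085843-40086092: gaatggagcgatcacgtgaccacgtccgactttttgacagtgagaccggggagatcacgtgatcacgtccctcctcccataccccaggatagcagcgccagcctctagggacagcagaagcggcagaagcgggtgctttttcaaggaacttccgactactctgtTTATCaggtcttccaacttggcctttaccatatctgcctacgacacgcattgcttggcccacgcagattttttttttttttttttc
Areg, chr5:91139349-91139598: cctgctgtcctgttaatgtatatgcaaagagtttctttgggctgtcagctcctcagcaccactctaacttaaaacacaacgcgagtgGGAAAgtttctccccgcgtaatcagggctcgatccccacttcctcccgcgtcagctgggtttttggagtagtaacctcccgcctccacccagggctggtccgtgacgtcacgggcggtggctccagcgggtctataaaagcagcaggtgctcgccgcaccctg

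Both windows of Il1rl1 held 1 NFAT core each, and they held 2 and 1 GATA cores. In the first of them a GATA core abutted the NFAT core. The window of Il1r2 had 1 GATA core and no NFAT core, and that of Areg had 1 NFAT core and no GATA core. Of the 10 windows of the 7 genes, 9 held GGAAA on either strand and 4 held GATAA, against 55.6% and 22.6% of 32851 windows of the same length genome-wide. The AP-1 letters TGANTCA were in 0 of 10 windows (6.75% genome-wide), the ROR letters AGGTCA in 1 (14.0%) and the STAT letters TTCNNNGAA in 2 (7.02%). The first and second window of Il18r1 overlap, so the 10 windows are not separate sequences, the search covered both strands, and a base could count toward more than 1 motif. A match describes the letters in a window and not a bound site.

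Il1rl1 had 1694 and 1746 normalized counts in unstimulated WT and 138 and 50.8 in labelled libraries. The groups did not overlap, and the labelled libraries differed from each other by 2.73-fold where the WT libraries differed by 1.03-fold. Il1rl1 was thus 20.3-fold lower (log2 fold change -4.34, SE 0.77, limma BH-adjusted p = 0.0179). After stimulation the counts were 1763 and 1585 in WT and 314 and 37.2 in labelled libraries. Again both labelled libraries were lower, by a log2 fold change of -3.93 (SE 0.77), but the limma BH-adjusted p was 0.0627. The labelled libraries of that comparison were 8.44-fold apart, with replicate 1 the higher. Without replicate 1 the log2 fold change was -5.45 (limma BH-adjusted p = 0.00186) and without replicate 2 it was -2.41 (limma BH-adjusted p = 0.285). The lone labelled library of these fits was assumed to vary like the other groups, and the adjusted p was at most 0.380 with any 1 library left out.

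Il1r2 encodes the decoy receptor for IL-1. It had 1223 and 1219 normalized counts in unstimulated WT and 118 and 61.4 in labelled libraries, and 696 and 563 against 146 and 35.5 after stimulation. In both states the groups did not overlap. The log2 fold change was -3.82 (SE 0.55, limma BH-adjusted p = 0.0088) in unstimulated cells, the smallest p of the 8 genes, and -3.10 (limma BH-adjusted p = 0.0537) in stimulated cells. Il1r2 overlaps the non-coding gene Gm16894, which had 12.0 to 50.7 normalized counts in unstimulated libraries. Whether reads were counted by strand is not settled by the sources used here, so reads of the pair cannot be told apart with certainty.

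The IL-18 receptor chains differed less. Il18r1 had 3513 and 4675 normalized counts in unstimulated WT and 3081 and 1609 in labelled libraries, and 2663 and 2566 against 1402 and 1170 after stimulation. The groups did not overlap in either state, but the log2 fold changes of -0.86 (SE 0.28, limma BH-adjusted p = 0.110) and -1.03 (limma BH-adjusted p = 0.142) were not called. Il18rap had 884 and 1123 against 511 and 204 in unstimulated cells, without overlap (log2 fold change -1.62, limma BH-adjusted p = 0.0794). After stimulation it had 570 and 476 in WT and 495 and 198 in labelled libraries, and the groups overlapped (log2 fold change -0.73, limma BH-adjusted p = 0.543). DESeq2 called Il18rap lower in unstimulated cells (8.57% of all tested genes in either direction) and Il18r1 lower in stimulated cells (3.4%). Without unstimulated labelled replicate 1, both genes were called lower in unstimulated cells, with log2 fold changes of -1.33 for Il18r1 (limma BH-adjusted p = 0.00949) and -2.28 for Il18rap (limma BH-adjusted p = 0.0253). Without unstimulated labelled replicate 2 neither was called, with log2 fold changes of -0.40 (limma BH-adjusted p = 0.261) and -0.96 (limma BH-adjusted p = 0.220). Each of these fits takes the spread of the lone labelled library from the other groups.

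**Figure D2:**
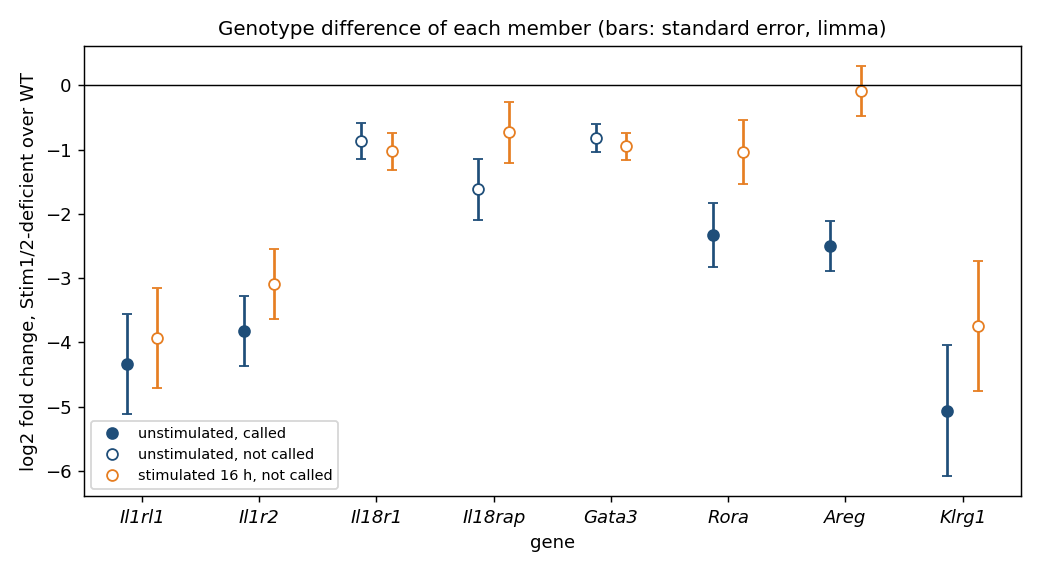
Log2 fold change of each of the 8 genes between libraries labelled Stim1/2-deficient and WT libraries (vertical axis), in unstimulated (blue) and stimulated (orange) cells, with bars of 1 standard error from limma and filled points for called genes. Il1rl1, Il1r2 and Klrg1 lie below -3 in both states, whereas Areg lies at -2.50 in unstimulated and -0.09 in stimulated cells.

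Among the other genes of the block, differences were not uniform. Il1r1, the signalling IL-1 receptor between Il1r2 and Il1rl2, had 212 and 185 normalized counts in unstimulated WT and 122 and 38.7 in labelled libraries (log2 fold change -1.51, limma BH-adjusted p = 0.522). After stimulation it had 161 and 123 against 64.3 and 0.84, the latter from 1 read (log2 fold change -3.69, limma BH-adjusted p = 0.212). Il1rl2, the IL-36 receptor gene next to Il1rl1, had 64.8 and 44.3 against 57.7 and 48.1 in unstimulated cells, and these overlapped (log2 fold change -0.02). Map4k4, a kinase gene at the centromeric flank, had a log2 fold change of 0.31 (limma BH-adjusted p = 0.463). On the telomeric flank Slc9a4, Slc9a2, Mfsd9 and Tmem182 had under 30 normalized counts in every library and were not tested. Of the 7 tested genes of the block and its flanks, 2 were called lower in unstimulated cells, Il1r2 and Il1rl1 (3.35% of all tested genes were).

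**Figure D3:**
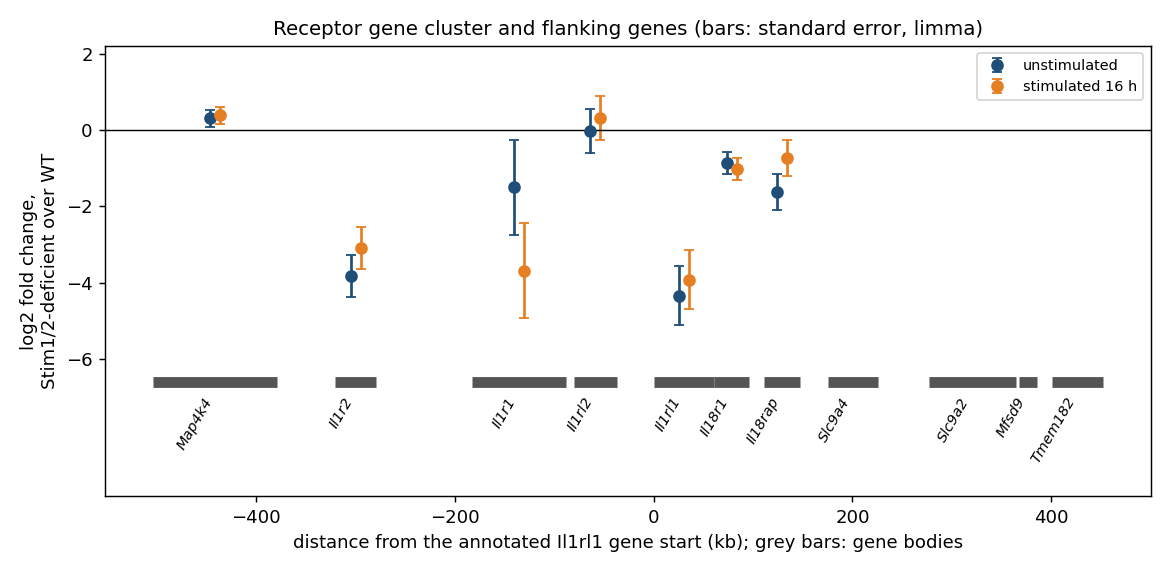
Log2 fold change between libraries labelled Stim1/2-deficient and WT libraries (vertical axis) of the tested genes of the receptor block and its flank, placed by the distance of the gene centre from the annotated start of Il1rl1 in kb, with bars of 1 standard error from limma and grey bars for gene bodies. Il1r2 and Il1rl1 lie near -4 in unstimulated cells while Il1rl2 between them lies at -0.02.

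Few partners of these receptors were called. Of 25 listed genes of IL-1 family signalling other than the 8, 23 were tested, 0 were called lower (3.35% of all tested genes were) and 1 was called higher in unstimulated labelled libraries (1.38% of all tested genes were). At an unadjusted p under 0.05 there were 4 in limma (22% of all tested genes), and edgeR and DESeq2 called 1 each, where they called 3.14% and 8.57% of all tested genes in either direction. The median log2 fold change of the list was -0.07. The shared chain Il1rap had 242 and 264 normalized counts in WT and 172 and 228 in labelled libraries, and the adaptor Myd88 had 324 and 263 against 228 and 287. The gene called higher was Il18bp, a secreted inhibitor of IL-18, with 191 and 207 against 562 and 378 normalized counts (log2 fold change 1.21, limma BH-adjusted p = 0.0338). No gene of the list was called higher without unstimulated labelled replicate 1, without any 1 of the 4 WT libraries, in the fit to the 4 unstimulated libraries, or when every gene above 0 was tested. Il33 itself had at most 2.67 normalized counts in any library.

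Gata3 was lower in labelled libraries in both states by a smaller factor than ST2. It had 1648 and 1498 normalized counts in unstimulated WT and 784 and 1008 in labelled libraries, and 1363 and 1317 against 799 and 603 after stimulation. The groups did not overlap in either state, and the replicates of every group lay within 1.33-fold of each other. The log2 fold changes were -0.82 (SE 0.21, limma BH-adjusted p = 0.0569) and -0.95 (SE 0.21, limma BH-adjusted p = 0.0854), and neither was called. Over the alternatives that kept all libraries, the adjusted p ranged from 0.0219 to 0.109 in unstimulated cells, where 3 of them called Gata3 lower. In stimulated cells it ranged from 0.00996 to 0.172, and 2 of them called Gata3 lower. DESeq2 called it in both states (8.57% and 3.4% of all tested genes in either direction).

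Rora was the most abundant of the 8 in unstimulated WT cells, with 24477 and 25307 normalized counts. The labelled libraries had 2412 and 10125, both below WT and 4.20-fold apart, with replicate 2 the higher. The log2 fold change was -2.33 (SE 0.49, limma BH-adjusted p = 0.0302). After stimulation all 4 libraries were far lower, with 1775 and 1721 in WT and 983 and 735 in labelled libraries, which did not overlap (log2 fold change -1.04, limma BH-adjusted p = 0.393). The long Rora gene overlaps 5 annotated non-coding genes, of which Gm15511, at 28.3 to 271.8 normalized counts in unstimulated libraries, was listed with reads.

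Of 11 listed GATA and ROR family genes and GATA3 co-factors, 6 were tested and 1 was called lower in unstimulated labelled libraries (3.35% of all tested genes were), the clock repressor Nr1d1, with 127 and 137 normalized counts in WT and 44.0 and 33.4 in labelled libraries (log2 fold change -1.76, limma BH-adjusted p = 0.0362). Nr1d1 was not called without unstimulated labelled replicate 1 or without any 1 of the 4 WT libraries, nor by edgeR, in the fit to the 4 unstimulated libraries, when every gene above 0 was tested, or after rescaling to equal totals or to equal upper quartiles. Gata1 had 36.7 and 32.5 against 33.5 and 49.4 normalized counts, and Gata2, Gata4, Gata6 and Zfpm2 were below the filter.

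Areg was called in unstimulated cells and not in stimulated cells. It had 1599 and 1477 normalized counts in WT and 165 and 445 in labelled libraries, without overlap (log2 fold change -2.50, SE 0.38, limma BH-adjusted p = 0.0111). After stimulation it had 238 and 218 in WT and 235 and 195 in labelled libraries, and the groups overlapped (log2 fold change -0.09, SE 0.38, limma BH-adjusted p = 0.953). The difference between both contrasts was 2.41 on the log2 scale (SE 0.54), with an unadjusted p of 0.00121 and an adjusted p of 0.506 in limma, so that it was not called after correction over all tested genes. DESeq2 on the recovered reads called it (adjusted p = 0.0162), whereas edgeR did not.

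Of 16 genes of EGF receptor ligands, receptors and sheddases, the family of Areg, 10 were tested and 0 were called by limma in either state (3.35% of all tested genes were called lower and 1.38% higher in unstimulated cells). At an unadjusted p under 0.05 there were 4 in unstimulated cells (22% of all tested genes) and 2 in stimulated cells (13.7%), and edgeR and DESeq2 called 0 in both states. The pair with the smallest p was Adam17, the sheddase that releases amphiregulin, with 2014 and 1942 normalized counts in unstimulated WT and 1447 and 1436 in labelled libraries (log2 fold change -0.46, limma unadjusted p = 0.0201, adjusted p = 0.143), and Erbb3, with 142 and 127 against 83.9 and 45.4 (log2 fold change -1.11, limma unadjusted p = 0.0243, adjusted p = 0.157). Ereg and Erbb4 were at 0 in all 8 libraries.

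In unstimulated cells Klrg1 had the largest difference of the 8. It had 2136 and 1715 normalized counts in unstimulated WT and 155 and 20.03 in labelled libraries, the latter from 148 and 15 reads. The labelled libraries were 7.75-fold apart and both lay below either WT library. The log2 fold change was -5.06 (SE 1.01, limma BH-adjusted p = 0.0252). After stimulation Klrg1 had 459 and 725 in WT and 134 and 12.7 in labelled libraries, 10.6-fold apart, and the log2 fold change of -3.75 (SE 1.01, limma BH-adjusted p = 0.137) was not called.

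Klrg1 and Il18rap are also carried by natural killer (NK) cells, and ST2 by mast cells. The 9 NK markers, led by Gzma and Eomes, summed to 132 and 162 normalized counts in unstimulated WT and to 1103 and 268 in labelled libraries, so that their level ran opposite to that of Klrg1 between genotypes. Of the 8 NK markers tested, limma and edgeR called 0 and DESeq2 called 1, and 3 had an unadjusted p under 0.05. Within the labelled libraries, replicate 1 was higher than replicate 2 in the NK sum (1219 against 253 after stimulation) and in Klrg1, in both states. In stimulated WT, replicate 1 was higher in the NK sum (705 against 146) and lower in Klrg1. Of 9 mast cell and basophil markers only Kit was tested, and the list summed to 255 and 344 against 255 and 146. Most of that sum was Kit, at 250 and 310 against 175 and 134. Gata2, Fcer1a and Mcpt8 were at 0 in both unstimulated WT libraries. They had 15.7, 2.10 and 9.44 in labelled replicate 1 and 0, 1.34 and 0 in labelled replicate 2. Tpsb2 was at 0 in both unstimulated labelled libraries. The part of such cells in the differences was not tested.

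Markers of other cells were highest in unstimulated labelled replicate 1 among the unstimulated libraries for macrophages, B cells and neutrophils. The 12 macrophage markers, led by Vcam1 and Mrc1, summed to 167 and 186 normalized counts in unstimulated WT and 10283 and 1485 in labelled libraries, and 9 of 11 tested were called higher (1.38% of all tested genes were). After stimulation they summed to 118 to 231 in all 4 libraries, with Mrc1 at 0 in each. B cell markers, led by Ms4a1 and Pax5, summed to 352 and 383 against 3805 and 924, with 2 of 10 called higher, and neutrophil markers, led by S100a9 and S100a8, to 239 and 142 against 1217 and 522, with 0 of 6 tested called by limma, 3 at an unadjusted p under 0.05, and 0 called by edgeR and 2 by DESeq2. The markers of T helper 2 cells and innate lymphoid cells, which carry Il1rl1 and Gata3, led by Il17rb and Arg1, summed to 257 and 253 against 261 and 196, with 0 of 6 tested called by limma, 1 at an unadjusted p under 0.05, and 0 called by edgeR and DESeq2. The 2 leading genes of that sum went opposite ways. Il17rb had 190 and 155 in WT against 95.4 and 74.8, and Arg1 had 44.25 and 72.4 against 137 and 101.5. The even sum therefore does not show an even share of such cells. Cd8b1 and Cd8a summed to 270 and 208 against 428 and 204. Without labelled replicate 1, log2 fold changes in unstimulated cells were -5.06 for Il1rl1, -4.29 for Il1r2 and -6.51 for Klrg1. They were -1.79 for Areg, -1.30 for Rora and -0.64 for Gata3. Without labelled replicate 2 they were -3.63, -3.35, -3.62, -3.22, -3.37 and -1.001 in the same order of genes.

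The labelled replicates differed more than WT replicates over the 8 genes. The median ratio of the higher to the lower replicate was 2.60 in unstimulated and 1.92 in stimulated labelled libraries, against 1.09 and 1.10 in WT, and over all tested genes it was 1.38, 1.30, 1.20 and 1.21. In stimulated cells replicate 1 was the higher for all 8 genes in labelled libraries and for 7 of the 8 in WT. In unstimulated labelled libraries it was the higher for the 4 receptors and Klrg1, and replicate 2 was the higher for Gata3, Rora and Areg.

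The count of 5 called genes in unstimulated cells rested on both WT libraries. Without WT replicate 3 or without WT replicate 4 it was 0, although the log2 fold change of Il1rl1 was then -4.36 and -4.32 (limma BH-adjusted p = 0.213 and 0.0989). These fits assume that the lone WT library varies like the other groups. It was 3 (Areg, Il1r2 and Il1rl1) without stimulated WT replicate 1 or 2, which enter through the shared spread. In stimulated cells, where limma called 0 of 8 (0.11% of all tested genes were called lower), edgeR called 0 (0.00649% of all tested genes) and DESeq2 called 4, namely Gata3, Il18r1, Il1r2 and Il1rl1 (3.4% of all tested genes in either direction). In that comparison 6 of the 8 had both labelled libraries below both WT libraries, as did 23.1% of all tested genes. The limma count rose without unstimulated labelled replicate 1 or 2, or without stimulated labelled replicate 1. It did not rise without stimulated labelled replicate 2 or any 1 WT library. The share of all tested genes called in these fits is not given here.

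The interaction tested whether genotype differed more in one state than in the other. None of the 8 was called by limma (0% of all tested genes were), and 1, Areg, had an unadjusted p under 0.05 (8.15% of all tested genes did). Among the 8, edgeR called 0 and DESeq2 called 1, Areg again (0.305% of all tested genes). The interaction was 1.29 for Rora (limma BH-adjusted p = 0.646), 1.31 for Klrg1 (0.825), 0.41 for Il1rl1 (0.944) and 0.72 for Il1r2 (0.819). Their standard errors were 0.70, 1.44, 1.09 and 0.77, and the interaction was smaller than 2 standard errors for each of these 4.

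Stimulation for 16 h was followed within each genotype, with the lane bound to it. In WT, Rora fell from a mean of 24892 ± 587 to 1748 ± 37.7 normalized counts (SD, n = 2; log2 fold change -3.83, limma BH-adjusted p = 0.00123) and Areg from 1538 ± 86.4 to 228 ± 14.5 (log2 fold change -2.75, limma BH-adjusted p = 0.00177). These 2 of 8 were called, as were 13.1% of all tested genes in that direction. For 7 of the 8 both stimulated WT libraries lay below both unstimulated ones (36% of all tested genes), and only Il1rl1 overlapped, at a log2 fold change of -0.04 that was 0.48 with libraries rescaled to equal totals. Klrg1 (-1.73), Il1r2 (-0.96), Il18rap (-0.93), Il18r1 (-0.63) and Gata3 (-0.23) were not called, and Gata3 was at 0.29 under that rescaling.

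In labelled libraries, Rora alone of the 8 was called lower after stimulation (12% of all tested genes were called lower), from 6268 ± 5454 to 859 ± 175 normalized counts (log2 fold change -2.54, limma BH-adjusted p = 0.00565). Il18r1, at -0.80 (limma BH-adjusted p = 0.0634), was the other gene whose libraries did not overlap between states, and 30.6% of all tested genes had both stimulated libraries below both unstimulated ones. The log2 fold changes of Il1rl1 (0.37), Areg (-0.34), Gata3 (-0.36), Il1r2 (-0.24), Il18rap (-0.05) and Klrg1 (-0.42) were not called, and those of Areg, Gata3, Il1r2 and Il18rap were above 0 with libraries rescaled to equal totals.

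The order of the 4 group means differed between genes. Unstimulated WT was the highest group for all 8. Stimulated WT came next for the receptors, Gata3 and Klrg1, whereas unstimulated labelled libraries came next for Rora and Areg. For Il1rl1 the order was unstimulated WT, stimulated WT, stimulated labelled and unstimulated labelled, and the neighbours within each genotype overlapped. For Areg the lower 3 groups overlapped with their neighbours, and for Rora no neighbours overlapped. Per kb of exon, with lengths from GENCODE vM1, the levels in unstimulated WT were 1900 normalized counts for Rora, 1362 for Klrg1, 1283 for Areg, 913 for Il1r2, 857 for Il18r1, 395 for Gata3, 250 for Il1rl1 and 149 for Il18rap.

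Beyond the 8, most listed genes of effector and tissue Treg cells were called lower in unstimulated labelled libraries. Of 28 such genes, several of which the study itself named from these libraries so that their direction is not independent evidence, 22 were called lower (3.35% of all tested genes were) and 0 higher (1.38%) in unstimulated labelled libraries, with a median log2 fold change of -2.24. Among the called genes, the 5 with the largest difference were Il10, Tigit, Ccr8, Gzmb and Tnfrsf9. Il10, the suppressive cytokine, had 885 and 923 normalized counts in WT and 50.3 and 56.1 in labelled libraries (log2 fold change -4.06, limma BH-adjusted p = 0.00106). The others were the checkpoint receptor Tigit (-3.61), the chemokine receptor Ccr8 (-3.49), the protease Gzmb (-3.24) and Tnfrsf9, which encodes 4-1BB (-3.08). Ebi3, at -3.30, was not called (limma BH-adjusted p = 0.0557). The 1 gene with a positive log2 fold change was Pparg, the factor of adipose tissue Treg cells, with 20.5 and 13.3 normalized counts in WT and 83.9 and 17.4 in labelled libraries, which overlapped (log2 fold change 1.17, limma BH-adjusted p = 0.447). Most of the 22 calls were lost without WT replicate 3 or without WT replicate 4, with medians of -2.21 and -2.31. After stimulation 4 were called lower (0.11% of all tested genes were), named here after their values were seen. They were the transcription factor Batf (-1.76), the integrin Itgae (-2.74), Il10 (-2.34) and Tnfrsf9 (-1.36), each at a limma BH-adjusted p of 0.0356 to 0.0392. In that comparison edgeR called 0 of the 28 and DESeq2 called 15. The 4 became 18 without stimulated labelled replicate 1, 12 without either unstimulated labelled library, and 0 without stimulated labelled replicate 2 or without any 1 of the 4 WT libraries.

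Of 12 genes of resting, recirculating T cells, 10 had a positive log2 fold change and 2 were called higher in unstimulated labelled libraries (1.38% of all tested genes were) and 0 lower, with a median log2 fold change of 0.84. They were the survival gene Bcl2, with 3345 and 3254 normalized counts in WT and 7570 and 6538 in labelled libraries (log2 fold change 1.09, limma BH-adjusted p = 0.0142), and the repressor Bach2, with 2514 and 2477 against 3691 and 5361 (log2 fold change 0.83, limma BH-adjusted p = 0.0454). The 2 with a negative log2 fold change in unstimulated cells were the homing receptor Ccr7 (-1.07) and the IL-7 receptor Il7r (-0.25), which were not called by genotype in either state and were at 0.77 and -0.98 after stimulation. The calls were lost without WT replicate 3 or 4, at medians of 0.79 and 0.74. They also changed without labelled replicate 1 (median 0.92) and without labelled replicate 2 (median 0.62), where they went in both directions. The share of all tested genes called in these fits is not given here.

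**Figure D4:**
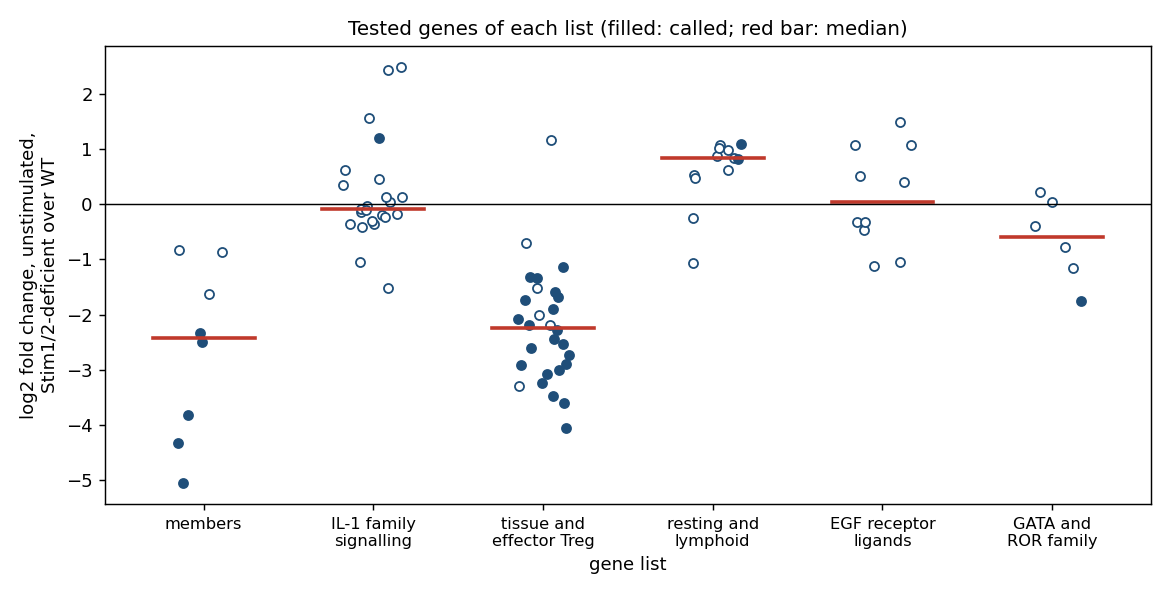
Log2 fold change in unstimulated cells, libraries labelled Stim1/2-deficient over WT (vertical axis), of each tested gene of the 8 described genes and of 5 lists of related genes, with filled points for called genes and red bars for medians. The medians are -2.42 for the 8 genes and -2.24 for tissue and effector Treg genes, near 0 for IL-1 family signalling and EGF receptor ligands, and 0.84 for resting T cell genes.

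Likeness to 4 of the genes was measured over the 8 libraries as the Euclidean distance between log2 values centred on each gene's mean, among the 9147 genes whose mean reached 100 normalized counts. It is a description, since libraries of a group share their treatment. Nearest to Il1rl1 was Ttc39c at 0.91 (the median gene was at 6.42), followed by Tigit at 1.495 and Il1r2 at 1.67. Ttc39c had 670 and 669 normalized counts in unstimulated WT, 90.2 and 28.1 in unstimulated labelled, 864 and 664 in stimulated WT and 178 and 27.0 in stimulated labelled libraries. It was thus low in the 4 labelled libraries and lowest in both replicates 2, as was Il1rl1.

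Nearest to Klrg1 were Cep112 at 1.37, Ptpn5 at 2.13 and Il1rl1 at 2.26, with a median gene at 7.30. In stimulated labelled replicate 2 Cep112 had 4 reads and Ptpn5 had 0, so their distances rest in part on values near the floor. Among the genes near Gata3 were Bmpr2 at 0.38 and Scd2 at 0.43, with a median gene at 1.81. Nearest to Areg were Ipmk at 0.72, Ndrg1 at 0.82 and the phosphatase gene Dusp4 at 0.88, with a median gene at 3.597. Dusp4 had 6389 and 5206 normalized counts in unstimulated WT, 754 and 2500 in unstimulated labelled, 1340 and 1473 in stimulated WT and 1155 and 1287 in stimulated labelled libraries. Like Areg it was high in unstimulated WT alone, with replicate 2 the higher of the unstimulated labelled pair. Among the 8 themselves, the closest pairs were Il18r1 with Gata3 at 1.17 and Il18r1 with Il18rap at 1.19.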

How the data were processed

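The 8 libraries, grouped by their labels into 4 groups of 2, were made from poly(A) RNA of sorted Treg cells. The deposited values (unit: signal) hold reads on each gene, scaled by the authors with 1 size factor for each library and given with 2 decimals. Whole reads were recovered by division from 100% of the values, within 0.02 normalized counts. The methods name Bowtie, NCBIM37, HTSeq, Picard, DESeq2 and an unstranded kit, whereas the labels name mm10, STAR 2.7, bcl2fastq 1.8.4, DESeq2 and a stranded kit. Of the listed symbols, 66.9% were in RefSeq GRCm38.p6 and 54.9% in GENCODE vM1, and coordinates here are of GRCm38.p6.

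In R 4.3.3, limma 3.58.1 was run (lmFit, then eBayes with its trend option) on log2(value + 1), over all 4 groups in 1 model, for genes whose mean reached 10. Tests were 2-sided and adjusted by Benjamini and Hochberg over the 15419 genes of a contrast. Fold changes are on the log2(value + 1) scale and understate those of low genes. Limma was made the main test because the deposited values were expected to be normalized counts. DESeq2, the study's own tool, needs whole counts and was run on the recovered reads as an alternative. A group of 2 libraries gives no interval of its own, and the spread between libraries exceeded counting error, with a chi-square per degree of freedom of 9.96 to 68.8 between replicates.

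All 8 genes were named in every contrast. Of each related list, up to 5 called genes with the largest difference in unstimulated cells were named, or the 2 with the smallest p where none was called, and of other cell types the 2 most abundant markers. Not every gene that these rules name is reported here. The members, lists and rules were chosen with earlier results of these data known. Alternatives were DESeq2 1.42.0 or the quasi-likelihood test of edgeR 4.0.16 on the recovered whole reads, other pseudocounts (0.1 or 5), other filters (above 0, or a mean of 100), other scalings (equal totals, equal upper quartiles, quantiles), fits of single contrasts, a threshold of 2-fold, a replicate block, and leaving out 1 library at a time.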

Additional observations from a re-analysis of the deposited data

How the results depend on the processing

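Differences by genotype kept their sign under every alternative and with every library left out for all 8 genes in unstimulated cells and for all but Areg in stimulated cells, where Areg ranged from -0.22 to 0.044 with 1 library left out. The count of 5 genes called in unstimulated cells was 3 when every gene above 0 was tested. With edgeR it was 4 and with DESeq2 7 (all but Il18r1), beside 3.14% and 8.57% of all tested genes in either direction. Over the alternatives that kept all libraries, Rora lost its call in 3 and Klrg1 in 1. The count also changed with 1 library left out, and the share of all tested genes in such fits is not given here. In stimulated cells, limma called 0, and 1 (Il1r2) with a pseudocount of 5 or a mean of at least 100, 3 after quantile normalization, 4 with DESeq2 and 0 to 5 with each library left out. The interaction gave 1 call with DESeq2 (Areg) and 0 to 2 with each library left out, the 2 being Areg and Rora without unstimulated labelled replicate 2. For stimulation in WT, the 2 calls became 6 in a fit to the 4 WT libraries alone, and in labelled libraries the 1 call became 2 with DESeq2 and 1 to 2 with each library left out. The causes of these shifts were not tested.

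Only stimulated WT with stimulated labelled libraries, and labelled libraries of both states, share replicate numbers, and the deviations of same-numbered libraries correlated at 0.17 and 0.26 over 15419 genes, 1 independent value each. These values do not show whether the libraries were paired. The main fit used no block because nothing says that a replicate number marks a shared pool. With the replicate block, 2 of the 8 were called in stimulated cells (Il1r2 and Il1rl1, beside 0.571% of all tested genes in either direction), 0 in the interaction (0.00649%) and 2 for stimulation in labelled libraries (Il18r1 and Rora, beside 31.5%). The unstimulated groups share no numbers, so no block could be fitted there.

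Rescaling to equal totals shifted the median over all tested genes by 0.12 on the log2 scale in the unstimulated genotype contrast and by 0.51 and 0.38 for stimulation in WT and labelled libraries, and equal upper quartiles shifted the first by 0.16. Signs of uncalled stimulation effects turned with it. In WT, Il1rl1 went to 0.48 with equal totals, 0.026 with equal upper quartiles and 0.25 after quantile normalization, and Gata3 to 0.29 with equal totals and 0.025 after quantile normalization. In labelled libraries, equal totals gave 0.15 for Il1r2, 0.34 for Il18rap, 0.032 for Gata3 and 0.052 for Areg. With 1 library left out, stimulation in labelled libraries ranged from -1.15 to 1.89 for Il1rl1, -1.24 to 0.77 for Il1r2, -0.71 to 0.61 for Il18rap, -1.05 to 0.38 for Areg and -2.07 to 1.24 for Klrg1, and in WT from -0.12 to 0.036 for Il1rl1. The interaction ranged from -1.11 to 1.93 for Il1rl1, -0.28 to 1.73 for Il1r2, -0.63 to 0.30 for Il18r1, -0.33 to 0.075 for Gata3 and -0.34 to 2.97 for Klrg1. With 2 libraries a group, the precision of uncalled differences of the 8 genes is given by their standard errors. Among the genes named, Klrg1 fell to 15 reads, Cep112 to 4, Il1r1 to 1, and Il9 and Ptpn5 to 0.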

Other observations

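The type 2 cytokines Il4, Il5, Il9 and Il13, products of cells that carry ST2 and GATA3, had at most 8.86 normalized counts in unstimulated libraries. After stimulation limma called all 4 higher in WT, and Il4 and Il13 higher in labelled libraries. The share of all tested genes called higher by stimulation is not given here. Of the 6 tested genes of their list, 2 had a negative log2 fold change with stimulation in each genotype. Il13 had at most 4.32 normalized counts in unstimulated libraries, and after stimulation 313 and 94.9 in WT and 146 and 38.8 in labelled libraries. After stimulation Il5 had 77.9 and 16.7 against 33.4 and 5.07, Il9 had 182 and 53.9 against 15.9 and 1.69, and Il4 had 164 and 72.9 against 100.1 and 66.7. Replicate 1 was the higher library of both stimulated groups for all 4 cytokines, as it was for the summed markers of NK and B cells. By genotype, limma called none of the 4 after stimulation, with log2 fold changes of -1.18 for Il13, -1.37 for Il5, -3.90 for Il9 and -0.42 for Il4 (adjusted p = 0.594, 0.658, 0.165 and 0.811). Of the 6 tested genes of their list, 2 had an unadjusted p under 0.05, DESeq2 called 2 and edgeR called 0.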
